A study of Homo sapiens with 8 samples.

Results

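The genes of G2 and mitosis were followed in BE2C cells, a human neuroblastoma line with amplified MYCN, after KDM6B was inhibited with a drug or lowered with siRNA. The set held 60 genes, taken by symbol from the array's annotation with 1 probe set each, and all 60 were measured among 17687 genes. The 8 Clariom S arrays fell into 4 groups of 2: GSK-J4 for 24 h, 0.1% DMSO for 24 h, KDM6B siRNA at 30 nM for 48 h, and control siRNA at 30 nM for 48 h. All groups came from the same cell line, so nothing here speaks for a second line. GSK-J4 is an ester that cells turn into an inhibitor of the KDM6 demethylases. Its dose is written as 2.5 mM in the labels, whereas the study's methods count GSK-J4 doses in micromolar, so the unit is uncertain. Replicates are labelled biological, and no label says which KDM6B siRNA sequence an array received. Values are log2 expression.

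KDM6B takes methyl groups off lysine 27 of histone H3. To divide, a cell builds up cyclin B and CDK1 through G2, condenses its chromosomes, captures them on a spindle through kinetochores, waits at the spindle checkpoint until every pair is attached, then cuts the links between sister chromatids and divides its cytoplasm at cytokinesis. Many of the genes that encode these parts are transcribed in the same late window of the cycle, when MuvB, B-MYB and FOXM1 act on promoters that carry a cell cycle genes homology region (CHR) and CCAAT boxes, the binding sites of NF-Y. In resting cells the DREAM complex sits on the same CHR and holds the genes down.

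Matches to these motifs were counted in the promoters of the set. RefSeq windows of GRCh38.p14, from 250 bases before to 50 bases after the start, were found for 52 of the 60 genes. AURKA, TTK, FOXM1, UBE2C, BIRC5, KNL1, TPX2 and ARHGEF39 were not matched. A CHR (TTTGAA or TTCGAA, on either strand) lay in 39 of the 52 windows (75.0%), against 4539 of all 27305 windows (16.6%). It lay within 50 bases of the start in 33 of the 52 (63.5%), against 1379 of all windows (5.1%). CCAAT was found in 39 of the 52 (75.0%), against 9747 of all windows (35.7%), and 25 of the 52 (48.1%) held it together with a CHR near the start, against 557 of all windows (2.0%). An E2F site (TTTCCCGC, TTTCGCGC, TTTGCCGC or TTTGGCGC, on either strand) was present in 4 of the 52 (7.7%), against 908 of all windows (3.3%). None of these motifs contains another. Of 37 genes of G1/S and replication, 22 (59.5%) held an E2F site, 2 (5.4%) a CHR, and 0 a CHR within 50 bases of the start. A match describes the letters and does not show binding.

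The following 30-base windows belong to the 10 genes that fell with GSK-J4 and have a CHR match in the table, and to SKA1, the gene that departed from the rest. They are shown so that the match and its surroundings can be compared between genes. Each is written 5′ to 3′ on the strand of its gene. Capitals mark the CHR match nearest the start, where TTCAAA is TTTGAA read on the other strand.
BUB1 (chr2:110678045-110678074, minus strand): ctgcgcggggtaTTCGAAtcggcggcggct
BUB1B (chr15:40161034-40161063, plus strand): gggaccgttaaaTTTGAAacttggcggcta
CDC20 (chr1:43358904-43358933, plus strand): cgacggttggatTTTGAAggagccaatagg
CENPA (chr2:26786026-26786055, plus strand): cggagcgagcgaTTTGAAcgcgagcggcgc
CENPW (chr6:126340120-126340149, plus strand): gttggcggcggaTTCGAAcgttcggactga
KIF11 (chr10:92593090-92593119, plus strand): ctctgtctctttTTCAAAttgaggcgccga
DLGAP5 (chr14:55191565-55191594, minus strand): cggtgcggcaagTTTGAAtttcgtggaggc
GTSE1 (chr22:46296832-46296861, plus strand): ctcggagcccttTTCAAAccgaccaatcgg
KIF14 (chr1:200620733-200620762, minus strand): gcggggcgcccaTTCAAAttgcggccttct
ECT2 (chr3:172750746-172750775, plus strand): agagcagcttagttTTTGAAtcggttgtgg
SKA1 (chr18:50375066-50375095, plus strand): ggcgcggcgggcggTTTGAAttttgcttac
Counted from the start, the first base of the match stood at -65 in CDC20, -28 in KIF11, -26 in GTSE1, -23 in BUB1B, -18 in CENPA, 2 in BUB1 and KIF14, 4 in DLGAP5, 18 in CENPW, and 35 in ECT2 and SKA1. Further CHR matches lay at -178 in CDC20, at -138 and -109 in DLGAP5 and at -115 in ECT2. The windows of CCNB1, PTTG1 and CENPE, which also fell, held no match to these letters.

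**Figure D1:**
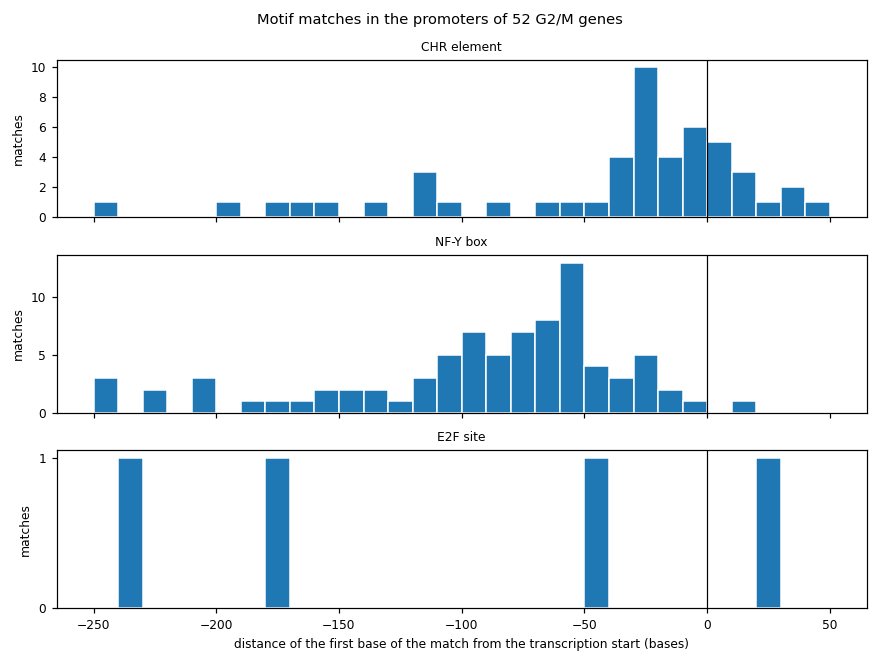
Number of motif matches (vertical axis) by the distance of the match's first base from the transcription start in bases (horizontal axis, 10-base bins), in the promoters of the 52 G2/M genes with a RefSeq window; the panels show the CHR, the CCAAT box (NF-Y box) and the E2F site. CHR matches crowd around the start, with 33 of the 52 promoters holding one within 50 bases, CCAAT matches lie mostly further upstream, and 4 promoters hold an E2F site.

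All 60 genes lay above background, the 95th percentile of 612 negative control probe sets, on every array. Their levels ranged from 4.98 to 11.43, against a background of 4.62 to 4.89. Both sets of control cells had near-identical levels of them, with a median difference of 0.01 (control siRNA minus DMSO) and a range of -0.22 for ESPL1 to 0.42 for CDCA3. Replicates correlated across all genes with r = 0.995 for GSK-J4, 0.994 for DMSO, 0.974 for KDM6B siRNA and 0.996 for control siRNA. The KDM6B siRNA replicates differed by more than 1 for 906 genes. All 9 sympathoadrenal markers measured were above background on every array, while of the blood markers PTPRC was above it on 2 arrays and CD3E on 0, and of the epithelial markers KRT8 was above it on 8, EPCAM on 1 and CDH1 on 0. KDM6B itself read 7.22 and 5.76 with KDM6B siRNA, against 8.27 and 8.35 with control siRNA. Both siRNA arrays lay below both controls, and replicate 2 lay far below replicate 1. The log2 difference was -1.82 ± 0.39 (SE), which did not pass the test (limma, adjusted p = 0.0878). With GSK-J4 KDM6B read 9.41 and 9.18, against 8.17 and 8.47 with DMSO, so the drug arrays lay above their controls, again without passing (0.98 ± 0.39, adjusted p = 0.25).

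With GSK-J4, the mitotic genes were lower nearly throughout. Of the 60, 17 fell and 0 rose, while 1.41% of all 17687 genes passed the test as lower and 2.29% as higher (limma, Benjamini-Hochberg over all genes, adjusted p under 0.05). The median log2 difference of the set was -0.71, against -0.02 over all genes. In 59 of the 60, both GSK-J4 arrays lay below both DMSO arrays, a pattern seen in 28.6% of all genes, and only SKA1 had both above. The 17 that fell were 1.59-fold to 2.83-fold lower than with DMSO. At an unadjusted p under 0.05, 46 of the 60 were lower and 1, SKA1, was higher, against 8.42% and 8.59% of all genes. In RNA from whole cultures, fewer cells in G2 and mitosis and less transcript per cell cannot be told apart. The count of calls moved with the arrays in the fit: it was 49 on the GSK-J4 and DMSO arrays alone. The share of all genes that passed was not counted for that fit. More genes of the set passed when 1 KDM6B siRNA array was left out. Most of the 17 calls were lost without any 1 of the GSK-J4, DMSO or control siRNA arrays. Those fits leave 1 array in a group, so their counts are not given. The median stayed between -0.76 and -0.67 in all of these. The SE of each gene is pooled over all 4 groups. A large standard deviation (SD) between the KDM6B siRNA replicates therefore widens the SE of the GSK-J4 difference too.

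**Figure D2:**
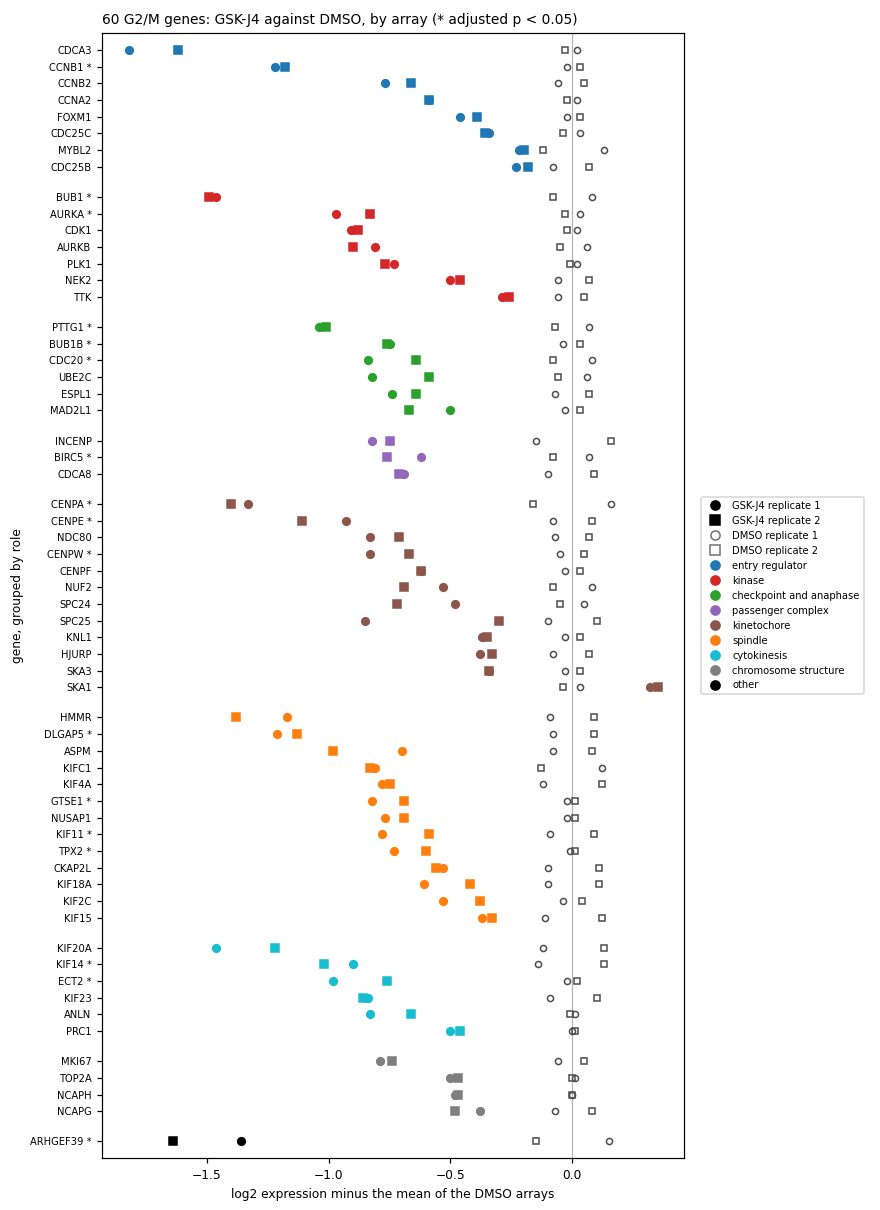
Log2 expression of each of the 60 genes minus the mean of the DMSO arrays (horizontal axis), with genes in rows by role (vertical axis); filled symbols are the GSK-J4 arrays, open symbols the DMSO arrays, circles replicate 1 and squares replicate 2, and an asterisk marks an adjusted p under 0.05. The GSK-J4 arrays lie left of both DMSO arrays in 59 rows and right of them for SKA1.

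Among the 7 mitotic kinases, BUB1 and AURKA fell, and the median log2 difference was -0.86. BUB1 guards the spindle checkpoint and marks the inner centromere. It read 7.13 and 7.10 with GSK-J4, against 8.67 and 8.51 with DMSO. The gap between the groups was many times the gap within them, and BUB1 was 2.79-fold lower (log2 difference -1.48 ± 0.12, SE, adjusted p = 0.000788 by limma). Aurora A, which matures centrosomes and stabilises MYCN protein, read 9.13 and 9.27 with GSK-J4, against 10.13 and 10.07 with DMSO. AURKA was thus 1.86-fold lower, again with no overlap (-0.90 ± 0.13, adjusted p = 0.0114 by limma). CDK1, AURKB and PLK1, the central engines of mitotic entry and chromosome alignment, had differences of -0.89, -0.86 and -0.75 and did not pass, nor did NEK2 at -0.48 and TTK at -0.27. The pooled SEs of CDK1, AURKB and PLK1 take in KDM6B siRNA SDs of 0.71, 0.64 and 0.49. For AURKA that SD was 0.13. With GSK-J4 and DMSO the SDs of CDK1 were 0.02 and 0.03. Not passing therefore does not show that these kinases were spared.

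The 8 regulators of entry into mitosis ranged widely around a median of -0.51. Cyclin B1, the partner that activates CDK1, read 8.44 and 8.48 with GSK-J4, against 9.64 and 9.69 with DMSO. CCNB1 was 2.31-fold lower, and the arrays within each group were nearly equal (-1.21 ± 0.19, adjusted p = 0.0164 by limma). CDCA3, a trigger of mitotic entry that directs WEE1 to degradation, had the largest difference of all 60: 4.98 and 5.18 with GSK-J4, against 6.82 and 6.77 with DMSO. Its groups were far apart and the treated cells came close to background, yet the difference of -1.72 ± 0.43 did not pass (adjusted p = 0.0773 by limma). That SE pools SDs of 0.14 with GSK-J4, 0.03 with DMSO, 1.19 with KDM6B siRNA and 0.01 with control siRNA. MYBL2, the B-MYB that primes CHR promoters, and CDC25B, a phosphatase that starts CDK1, stood at the other end. MYBL2 read 9.65 and 9.67 with GSK-J4, against 10.00 and 9.75 with DMSO (-0.21 ± 0.20, adjusted p = 0.68 by limma). CDC25B read 9.05 and 9.10 with GSK-J4, against 9.20 and 9.35 with DMSO (-0.20 ± 0.25, adjusted p = 0.765 by limma). For both, the groups were separate by little. CCNB2, CCNA2, FOXM1 and CDC25C lay in between, at -0.71, -0.59, -0.43 and -0.35, and did not pass.

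Of 6 genes of the spindle checkpoint and the anaphase switch, 3 fell. PTTG1 encodes securin, which holds separase inactive. It read 8.58 and 8.61 with GSK-J4, against 9.69 and 9.55 with DMSO, a 2.03-fold lower level (-1.02 ± 0.16, adjusted p = 0.0177 by limma). BUB1B, the BUBR1 subunit of the mitotic checkpoint complex, read 9.11 and 9.10 with GSK-J4, against 9.82 and 9.89 with DMSO (-0.76 ± 0.13, adjusted p = 0.024 by limma). CDC20, which activates the anaphase-promoting complex, also fell, by 0.74 (SE 0.15, adjusted p = 0.0381 by limma). For all 6, both GSK-J4 arrays lay below both DMSO arrays, as in 28.6% of all genes. UBE2C, the ubiquitin-conjugating enzyme of that complex, ESPL1, which is separase, and MAD2L1, the checkpoint effector, had differences of -0.71, -0.69 and -0.58 and did not pass.

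In the chromosomal passenger complex, which corrects faulty attachments, survivin was the member that fell. BIRC5 changed by -0.69 ± 0.15 (adjusted p = 0.0496 by limma). The scaffold INCENP read 7.84 and 7.91 with GSK-J4, against 8.51 and 8.82 with DMSO (-0.79 ± 0.20, adjusted p = 0.0737). Borealin, encoded by CDCA8, read 7.38 and 7.36 with GSK-J4, against 7.97 and 8.16 with DMSO (-0.69 ± 0.16, adjusted p = 0.0532). The 3 subunits thus had nearly equal differences, on either side of the threshold.

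Of 12 genes of the centromere and kinetochore, CENPA, CENPE and CENPW fell, and SKA1 went the other way. CENPA, the histone H3 variant that marks centromeres, read 6.25 and 6.18 with GSK-J4, against 7.74 and 7.42 with DMSO. It was 2.57-fold lower (-1.36 ± 0.23, adjusted p = 0.0207 by limma). CENPE, the kinesin that brings chromosomes to the equator, read 8.16 and 7.98 with GSK-J4, against 9.01 and 9.17 with DMSO (-1.02 ± 0.22, adjusted p = 0.048 by limma). CENPW, which helps to join the inner kinetochore to DNA, read 7.58 and 7.74 with GSK-J4, against 8.36 and 8.46 with DMSO (-0.76 ± 0.15, adjusted p = 0.0368 by limma). In each of these, both GSK-J4 arrays lay below both DMSO arrays, as in 28.6% of all genes. The 4 subunits of the NDC80 complex, which grips microtubules, stood close together at -0.77 for NDC80, -0.61 for NUF2, -0.60 for SPC24 and -0.57 for SPC25, and none passed. CENPF, KNL1, HJURP and SKA3 were at -0.62, -0.36, -0.35 and -0.34, without passing.

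SKA1 belongs with SKA3 to the complex that keeps kinetochores on shortening microtubules. It read 6.81 and 6.84 with GSK-J4, against 6.52 and 6.45 with DMSO. SKA1 was the 1 gene of the set whose GSK-J4 arrays both lay above DMSO, which 25.5% of all genes did, and the difference of 0.34 ± 0.12 did not pass (adjusted p = 0.191 by limma). Its partner SKA3 read 8.67 and 8.67 with GSK-J4, against 8.98 and 9.04 with DMSO.

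The 13 spindle genes had a median of -0.73, and 4 fell: DLGAP5, GTSE1, KIF11 and TPX2. DLGAP5, also known as HURP, bundles the fibres next to chromosomes. It read 8.52 and 8.60 with GSK-J4, against 9.65 and 9.82 with DMSO, and was 2.25-fold lower (-1.17 ± 0.18, adjusted p = 0.0141 by limma). GTSE1, which steadies spindle microtubules, fell by 0.75 (SE 0.12, adjusted p = 0.0206). KIF11, the kinesin that pushes the poles apart, fell by 0.68 (SE 0.15, adjusted p = 0.0485), and TPX2, the activator of Aurora A, by 0.67 (SE 0.14, adjusted p = 0.0409). HMMR, a microtubule-binding receptor for hyaluronan, had a larger difference than any of these: 7.14 and 6.93 with GSK-J4, against 8.22 and 8.40 with DMSO. Its groups did not overlap, but at -1.27 ± 0.30 it did not pass (adjusted p = 0.0614 by limma). That SE takes in an SD of 0.77 with KDM6B siRNA. The other 8 spindle genes, ASPM, KIFC1, KIF4A, NUSAP1, CKAP2L, KIF18A, KIF2C and KIF15, lay between -0.84 and -0.35 without passing.

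KIF14 and ECT2 fell among the 6 cytokinesis genes, whose median was -0.86. KIF14, a midbody kinesin, read 7.36 and 7.24 with GSK-J4, against 8.12 and 8.39 with DMSO (-0.96 ± 0.16, adjusted p = 0.021 by limma). ECT2, an exchange factor that acts at the cleavage furrow, read 7.67 and 7.89 with GSK-J4, against 8.63 and 8.67 with DMSO (-0.87 ± 0.13, adjusted p = 0.0115 by limma). KIF20A carries the passenger complex to the midzone and read 8.52 and 8.76 with GSK-J4, against 9.86 and 10.11 with DMSO. Its groups were well apart, and its difference of -1.34 ± 0.42 did not pass (adjusted p = 0.145 by limma). That SE takes in an SD of 1.14 with KDM6B siRNA. KIF23 at -0.85, the furrow scaffold ANLN at -0.74 and the midzone bundler PRC1 at -0.48 did not pass either.

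None of the 4 genes of mitotic chromosome structure passed limma's test, and 1 had an unadjusted p under 0.05. The pooled SE takes in the KDM6B siRNA pairs, whose SDs ran from 0.52 for NCAPH to 0.83 for MKI67. With GSK-J4 or DMSO the SDs were at most 0.10, so not passing does not show that these genes were spared. MKI67, the proliferation marker that coats mitotic chromosomes, read 9.10 and 9.15 with GSK-J4, against 9.83 and 9.94 with DMSO (-0.76 ± 0.31, adjusted p = 0.266). TOP2A, the topoisomerase that untangles sister DNA, read 10.10 and 10.13 with GSK-J4, against 10.61 and 10.60 with DMSO (-0.49 ± 0.27, adjusted p = 0.419). The condensin I subunits NCAPH and NCAPG were at -0.47 and -0.43. In all 4 both GSK-J4 arrays lay below both DMSO arrays, as in 28.6% of all genes. ARHGEF39 fell the most among the genes that passed, with 5.37 and 5.09 under GSK-J4, against 6.88 and 6.58 under DMSO. It was 2.83-fold lower (-1.50 ± 0.26, adjusted p = 0.0239 by limma), with both groups clearly apart and the treated cells close to background.

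With KDM6B siRNA the same set was lower too, but the replicates did so to a different extent. Of the 60, CENPW and GTSE1 fell and 0 rose, while 0.492% of all genes passed as lower and 0.113% as higher. The median log2 difference was -0.58, against 0.01 over all genes, and all 60 fitted differences were below 0, against 47.7% of all genes. Both KDM6B siRNA arrays lay below both controls in 48 of the 60 (19.7% of all genes). Taken singly, replicate 1 had a median of -0.29 below the control mean and replicate 2 of -0.94. Replicate 2 lay below both controls for all 60 genes and replicate 1 for 48, where 37.7% of all genes did so on either array. Replicate 1 lay above both controls for 6. Replicate 2 was the lower of the pair for 57 genes (48.8% of all genes), and for 10 the pair differed by more than 1 (5.12%). BIRC5, CENPW and SKA1 were the 3 exceptions. The array with the lower mitotic genes was also the array with the lower KDM6B. With 2 arrays, a link between them was not tested. At an unadjusted p under 0.05, 40 of the 60 were lower and 0 higher, against 7.85% and 6.78% of all genes. On the siRNA arrays alone 0 passed, and both calls were lost without any 1 of the GSK-J4, DMSO or control siRNA arrays. Leaving out a KDM6B siRNA array leaves 1 culture in that group and removes the gap between its replicates. No count of calls is given for those fits.

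Other features moved with the same arrays. Of the 5 mesenchymal markers measured, 4 were above background on all 8 arrays and PDGFRA on 2. Their summed linear level was 1180 and 2120 with KDM6B siRNA, against 906 and 843 with control siRNA, and 541 and 550 with GSK-J4, against 751 and 718 with DMSO. LUM, DCN and PDGFRA were the markers that read higher on the KDM6B siRNA arrays, LUM at 8.44 and 9.72 with KDM6B siRNA, against 8.17 and 8.07 with control siRNA, and DCN at 8.79 and 9.89, against 8.22 and 8.08. PDGFRA read 6.90 and 4.58 with KDM6B siRNA, against 4.65 and 4.42 with control siRNA, so it stood out on replicate 1 alone. COL1A1 and COL1A2 stayed between 6.42 and 7.71 on those 4 arrays, and none of the 5 passed limma's test (2 higher at an unadjusted p under 0.05). The 9 sympathoadrenal markers summed to 11100 and 6210 with KDM6B siRNA, against 13200 and 13300 with control siRNA, and TH passed as lower (-1.04 ± 0.13, adjusted p = 0.0196 by limma). The part of these markers, or of whatever sets replicate 2 apart, in the mitotic result was not tested.

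**Figure D3:**
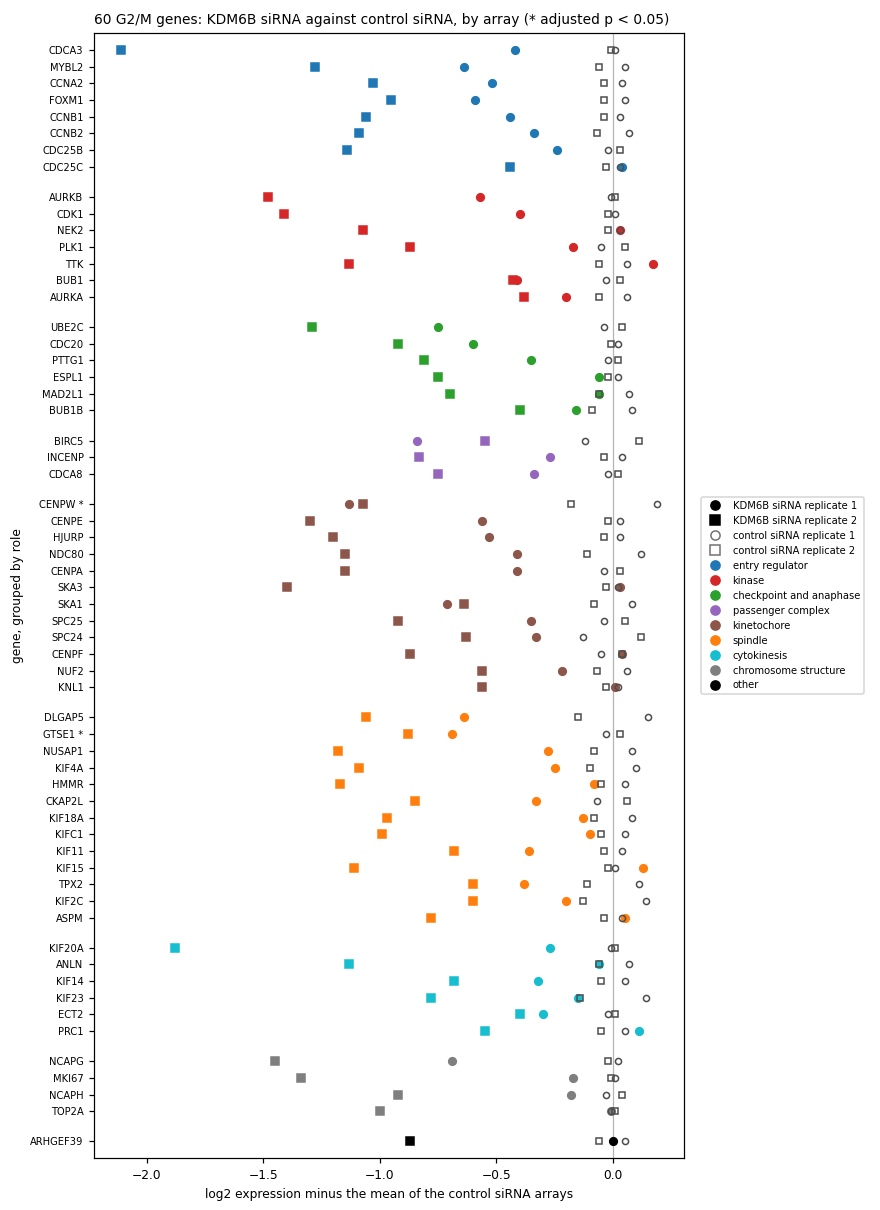
Log2 expression of each of the 60 genes minus the mean of the control siRNA arrays (horizontal axis), with genes in rows by role (vertical axis); filled symbols are the KDM6B siRNA arrays, open symbols the control siRNA arrays, circles replicate 1 and squares replicate 2, and an asterisk marks an adjusted p under 0.05. Replicate 2 lies left of both controls in all 60 rows, while replicate 1 does so in 48 and lies right of replicate 2 in 57.

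CENPW and GTSE1, the genes that passed in the knockdown, also fell with GSK-J4, and in both the siRNA replicates stood close together. Close replicates make the pooled SE small, so their closeness is part of the call and no added support for it. CENPW read 7.29 and 7.35 with KDM6B siRNA, against 8.61 and 8.24 with control siRNA. It was 2.15-fold lower (-1.10 ± 0.15, adjusted p = 0.0279 by limma). GTSE1 read 7.50 and 7.31 with KDM6B siRNA, against 8.16 and 8.22 with control siRNA, a 1.72-fold lower level (-0.78 ± 0.12, adjusted p = 0.0446 by limma). Neither pair overlapped its controls.

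Among kinases and entry regulators, the largest knockdown differences belonged to CDCA3, AURKB, MYBL2 and CDK1. CDCA3 read 6.80 and 5.11 with KDM6B siRNA, against 7.23 and 7.21 with control siRNA (-1.27 ± 0.43, adjusted p = 0.239 by limma). AURKB, the kinase of the passenger complex, read 8.45 and 7.54 with KDM6B siRNA, against 9.01 and 9.03 with control siRNA (-1.02 ± 0.25, adjusted p = 0.123). Both siRNA arrays were below both controls for these genes, with replicate 2 much the lower. MYBL2 read 9.14 and 8.50 with KDM6B siRNA, against 9.83 and 9.72 with control siRNA (-0.95 ± 0.20, adjusted p = 0.0884). CDK1 read 8.19 and 7.18 with KDM6B siRNA, against 8.60 and 8.57 with control siRNA (-0.90 ± 0.27, adjusted p = 0.19). TTK, the kinase MPS1 that starts the checkpoint, showed the split between replicates plainly: 9.44 and 8.14 with KDM6B siRNA, against 9.33 and 9.21 with control siRNA. Replicate 1 lay above both controls and replicate 2 more than 1 below them. CDC25C, another phosphatase of CDK1, had the smallest difference of the set, with 7.97 and 7.49 under KDM6B siRNA, against 7.96 and 7.90 under control siRNA (-0.20 ± 0.16, adjusted p = 0.641). The kinase median was -0.20 on replicate 1 and -1.08 on replicate 2, and that of the entry regulators -0.43 and -1.07.

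UBE2C and CDC20 led the checkpoint and anaphase genes. UBE2C read 8.80 and 8.26 with KDM6B siRNA, against 9.51 and 9.59 with control siRNA (-1.02 ± 0.19, adjusted p = 0.0594 by limma). CDC20 read 8.91 and 8.59 with KDM6B siRNA, against 9.53 and 9.50 with control siRNA (-0.77 ± 0.15, adjusted p = 0.0719). Both siRNA arrays were clear of the controls in both genes, without passing. In the passenger complex BIRC5 read 7.85 and 8.14 with KDM6B siRNA, against 8.57 and 8.80 with control siRNA (-0.69 ± 0.15, adjusted p = 0.0934). INCENP read 8.40 and 7.84 with KDM6B siRNA, against 8.71 and 8.63 with control siRNA (-0.55 ± 0.20, adjusted p = 0.253). BIRC5 was thus lowest on the array where INCENP was the higher of its pair.

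At the kinetochore, CENPE followed CENPW. CENPE read 8.53 and 7.79 with KDM6B siRNA, against 9.12 and 9.07 with control siRNA (-0.93 ± 0.22, adjusted p = 0.116 by limma). KNL1, the platform for the checkpoint proteins, read 7.45 and 6.88 with KDM6B siRNA, against 7.46 and 7.41 with control siRNA (-0.27 ± 0.18, adjusted p = 0.552). Its replicate 1 lay between the controls. Among spindle genes, DLGAP5 read 9.13 and 8.71 with KDM6B siRNA, against 9.92 and 9.62 with control siRNA (-0.85 ± 0.18, adjusted p = 0.0801), with no overlap. KIF20A and ANLN had their low values on replicate 2. KIF20A read 9.85 and 8.24 with KDM6B siRNA, against 10.11 and 10.13 with control siRNA (-1.07 ± 0.42, adjusted p = 0.294). ANLN read 10.30 and 9.23 with KDM6B siRNA, against 10.43 and 10.30 with control siRNA (-0.60 ± 0.29, adjusted p = 0.395). Replicate 1 of KIF20A lay 0.27 below the control mean, and that of ANLN lay level with its lower control.

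NCAPG, a condensin subunit, was low on both arrays, at 9.80 and 9.04 with KDM6B siRNA, against 10.51 and 10.47 with control siRNA (-1.07 ± 0.22, adjusted p = 0.0804 by limma). MKI67 read 9.84 and 8.67 with KDM6B siRNA, against 10.02 and 10.00 with control siRNA (-0.76 ± 0.31, adjusted p = 0.317). PRC1, the midzone bundler, read 10.67 and 10.01 with KDM6B siRNA, against 10.61 and 10.51 with control siRNA (-0.22 ± 0.20, adjusted p = 0.671). Its arrays lay on either side of the controls. The remaining genes of the set had knockdown differences inside the range of those named, -1.27 to -0.20, and did not pass.

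The drug and the knockdown were set against each other as the GSK-J4 effect minus the KDM6B siRNA effect, 2 effects that share no array but differ in time and vehicle. BUB1 and SKA1 passed this test, in opposite directions, where 0.175% of all genes passed as more negative with GSK-J4 and 0.746% as more positive. BUB1 read 7.98 and 7.96 with KDM6B siRNA, against 8.36 and 8.42 with control siRNA, a difference of -0.42 ± 0.12 (adjusted p = 0.161 by limma). The GSK-J4 effect on BUB1 was lower by 1.06 (SE 0.17, adjusted p = 0.0321). SKA1 read 5.96 and 6.03 with KDM6B siRNA, against 6.75 and 6.59 with control siRNA, a difference of -0.67 ± 0.12 (adjusted p = 0.0555). As its GSK-J4 arrays lay above DMSO, the effects on SKA1 differed by 1.01 (SE 0.17, adjusted p = 0.0385). For both genes all replicate pairs were tight, which is part of why they passed. Neither call held when any 1 of the GSK-J4, DMSO or control siRNA arrays was left out. With any 1 array left out, the difference of effects lay between -1.14 and -0.98 for BUB1. For SKA1 it lay between 0.93 and 1.09.

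**Figure D4:**
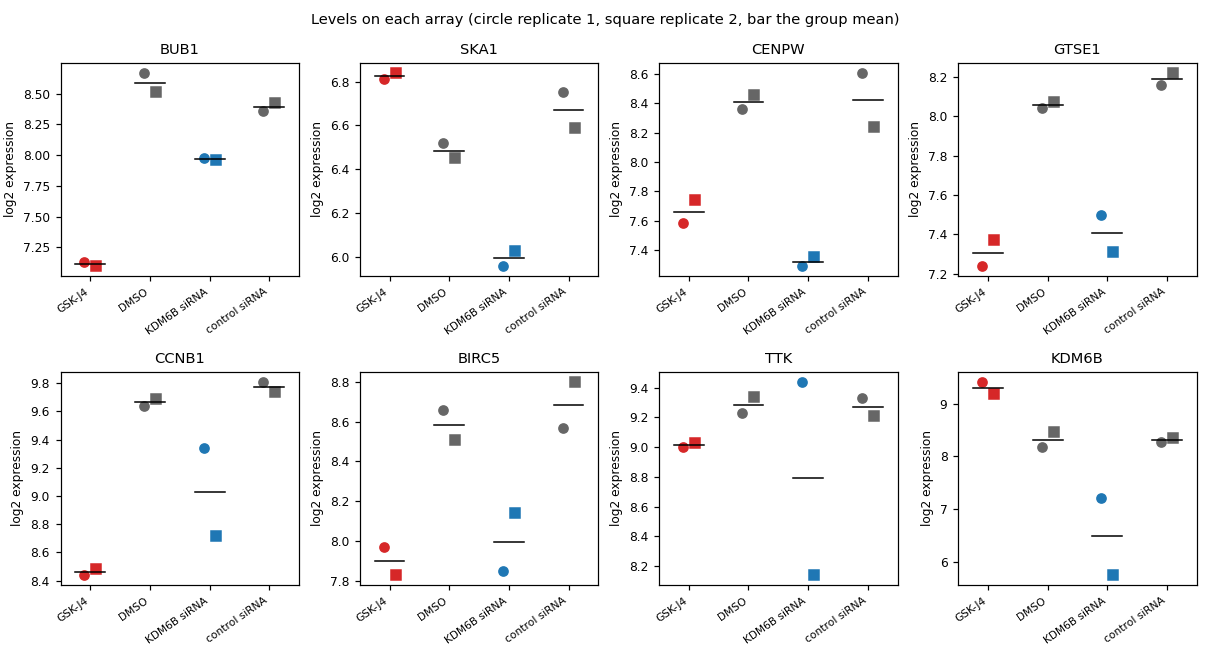
Log2 expression (vertical axes) of 7 G2/M genes and of KDM6B on each array of the 4 groups (horizontal axes); circles are replicate 1, squares replicate 2 and bars the group mean, and the axes do not start at 0. BUB1 is lowest with GSK-J4, SKA1 is lowest with KDM6B siRNA and highest with GSK-J4, and the KDM6B siRNA replicates of TTK and KDM6B stand far apart.

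For the other 58 genes the effects were not found to differ, which does not show that they responded alike. ARHGEF39, at -1.07 ± 0.37, had the most negative difference of effects (adjusted p = 0.293), and MYBL2 at 0.74 ± 0.29 and NCAPG at 0.64 ± 0.31 the most positive after SKA1 (adjusted p = 0.358 and 0.481). Both groups of arrays were below their controls in both comparisons for 47 of the 60 genes (8.61% of all genes). Of the 17 genes that fell with GSK-J4, 16 had both KDM6B siRNA arrays below both controls, as had 48 of the whole set and 19.7% of all genes. The exception was ARHGEF39, whose replicate 1 lay between its controls. The pooled SE behind a GSK-J4 call takes in the siRNA pairs, so the 17 were not picked independently of those arrays. Across the 60 genes the sizes of the effects were weakly related (Pearson r = 0.22, Spearman correlation 0.16), as they were across all genes (0.23 and 0.21); genes are not independent replicates, and no p-value is given.

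**Figure D5:**
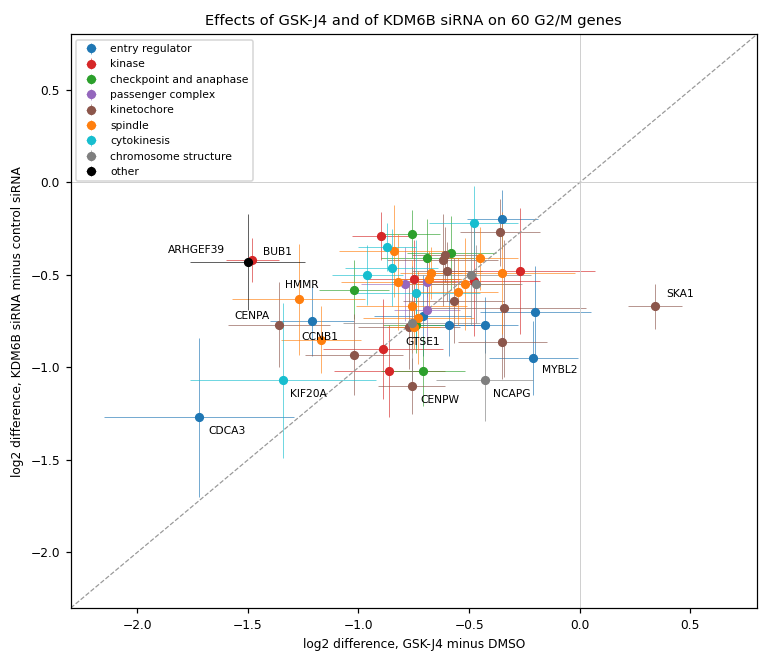
Log2 difference of KDM6B siRNA minus control siRNA (vertical axis) against that of GSK-J4 minus DMSO (horizontal axis) for the 60 genes, coloured by role, with bars of 1 SE and a dashed line of equal effects. SKA1 stands alone on the right at 0.34, BUB1 and ARHGEF39 lie far left of most genes, and all 60 points lie below 0 on the vertical axis.

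By role, the medians lay within a narrow range. The median GSK-J4 difference was -0.86 for kinases and for cytokinesis, -0.73 for spindle genes, -0.72 for checkpoint and anaphase genes, -0.69 for the passenger complex, -0.61 for the kinetochore, -0.51 for entry regulators and -0.48 for chromosome structure. In the knockdown the medians of these 8 roles lay between -0.76 and -0.48, and their order changed with the array: chromosome structure stood at -0.18 on replicate 1 and -1.17 on replicate 2, and entry regulators at -0.43 and -1.07. These medians were not tested against each other.

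With GSK-J4, genes of the same machinery outside the set had medians closer to 0 than the set. Set and lists were both drawn up with earlier results of these data known, so this contrast is not a test. Inside the set, chromosome structure at -0.48 and entry regulators at -0.51 lay near the -0.44 of the other entry and centrosome genes. The lists' counts of calls stand against the 1.41% of all genes that passed as lower. For 29 other centromere and kinetochore genes the GSK-J4 median was -0.30, with 4 fallen and 0 risen, of which SGO2, the protector of centromeric cohesion, changed by -1.18 ± 0.16 (adjusted p = 0.0104 by limma). For 36 other genes of mitotic entry and the centrosome it was -0.44, with 3 fallen: CEP55 at -1.47, PSRC1 at -1.23 and TACC3 at -1.05 (adjusted p = 0.0151, 0.0158 and 0.0278). Of the 17 subunits and partners of the anaphase-promoting complex, ANAPC15 and UBE2S fell, and the median was -0.32. Among 6 other condensin subunits NCAPG2 fell, with a median of -0.33. Of 12 DREAM and MuvB genes none passed limma's test with GSK-J4, at a median of -0.11, with 1 lower and 3 higher at an unadjusted p under 0.05 (8.42% and 8.59% of all genes).

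In the knockdown the corresponding medians were -0.45 for the centromere and kinetochore, with KNTC1 and DSN1 fallen, -0.50 for entry and centrosome, with CDC25A fallen, -0.07 for the anaphase-promoting complex, -0.28 for condensin, and -0.11 for DREAM and MuvB, with TFDP1 fallen by 1.30 (SE 0.11, adjusted p = 0.0111). Over all genes, 0.492% passed as lower. On replicate 1 and replicate 2 taken singly, the medians were -0.31 and -0.51 for the centromere and kinetochore, -0.27 and -0.77 for entry and centrosome, and -0.06 and -0.43 for condensin, so that on replicate 1 the centromere list was as low as the set. No gene of these lists passed as higher in either comparison. Over all genes, 2.29% passed as higher with GSK-J4 and 0.113% in the knockdown, so few were to be expected in lists this short. For 41 genes of G1/S and replication, 6 fell with GSK-J4 and 8 in the knockdown (1.41% and 0.492% of all genes), with medians of -0.48 and -0.71. The knockdown median was -0.41 on replicate 1 and -1.03 on replicate 2, against -0.29 and -0.94 for the G2/M set. CCNE2, CLSPN and RRM2 had the largest of these knockdown differences, -1.64, -1.55 and -1.26 (adjusted p = 0.0357, 0.0485 and 0.0113). On these medians the G2/M set was the lower list with GSK-J4 and the G1/S list the lower one in the knockdown, a contrast that was not tested.

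Within the set, genes with and without a CHR near the start had similar medians. The 33 genes with a CHR within 50 bases of the start had a GSK-J4 median of -0.74 and the 19 without one of -0.60. In the knockdown these medians were -0.59 and -0.70, the other way round. The 39 genes with a CCAAT box had a GSK-J4 median of -0.75 and the 13 without one of -0.43, and in the knockdown -0.58 and -0.67. SKA1, printed above, held a TTTGAA, as did BUB1B, CDC20, CENPA, DLGAP5 and ECT2, which fell, on the strand of the gene.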

How the data were processed

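Total RNA of 8 BE2C cultures was labelled with a whole-transcript kit and read on Clariom S arrays. The authors deposited 1 log2 value per probe set and array; the submitters' processing notes name GCOS, while for background correction, normalization and summarization the method was not given in the sources used here. Array medians lay between 6.16 and 6.20, so a change in total RNA per cell would not show. Arrays have no read depth, and their number limits the precision.

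Of 21448 transcript probe sets, 17709 had 1 gene symbol and 3739 none. Where a gene had several, the 1 with the highest mean was taken, leaving 17687 genes. The test was limma (lmFit and eBayes, version 3.58.1 in R 4.3.3), two-sided, fitted to all 8 arrays with 1 coefficient per group (4 residual and 4.18 prior degrees of freedom), adjusted by Benjamini-Hochberg over all genes at 0.05. The procedure was tested on simulated data. Alternatives changed the normalization, the filter, the variance model, the arrays in the fit and the test. The study's methods name a t-test, which was run as an alternative. The limma p-values set each difference against the spread between replicate arrays, pooled over all 4 groups.

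The genes, roles, comparison lists and tests were chosen with earlier results of these data known. Every gene of the set is named; array values are given for those that passed (up to 12 by size), the largest 2 of each role and the 3 highest differences per comparison. Promoter windows came from RefSeq.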

Additional observations from a re-analysis of the deposited data

Results flagged for a closer look

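BUB1 and SKA1 were flagged because the effects of GSK-J4 and of KDM6B siRNA on them differed in a test of the difference itself (limma interaction contrast, 2 arrays a group). For BUB1 the GSK-J4 effect minus the KDM6B siRNA effect was -1.06 (SE 0.17, adjusted p = 0.0321), with both GSK-J4 arrays below both DMSO arrays and both KDM6B siRNA arrays below both control siRNA arrays. For SKA1 it was 1.01 (SE 0.17, adjusted p = 0.0385), with both GSK-J4 arrays above both DMSO arrays and both KDM6B siRNA arrays below both control siRNA arrays. Over the alternatives the adjusted p ranged from 0.00474 to 0.208 for BUB1 and from 0.0065 to 0.239 for SKA1. The comparisons differ in time, 24 h against 48 h, and in delivery, which cannot be told apart from the agent.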

How the results depend on the processing

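With GSK-J4 the 17 calls were 15 after quantile normalization or median centring, 18 with dim genes left out, and 17 with the mean of a gene's probe sets, a variance trend or a robust fit. They were 45 with array weights, 49 on the GSK-J4 and DMSO arrays alone and 11 with the replicate number as a block. The methods' t-test gave 54 at an unadjusted p under 0.05 (53 lower) and 0 after Benjamini-Hochberg. Leaving out 1 array gave 1 to 52. The median of -0.71 stayed between -0.76 and -0.67.

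For KDM6B siRNA the 2 calls were 1 after quantile normalization, and 0 with array weights, with the replicate block and on the siRNA arrays alone. The t-test gave 6 unadjusted and 0 adjusted. Leaving out 1 array gave 0 to 57 calls and medians of -0.94 to -0.29. Without KDM6B siRNA replicate 2, which left 1 array assumed to vary like the other groups, 10 genes changed sign against the values without replicate 1: TTK 0.16 and -1.13, NEK2 0.02 and -1.08, CDC25C 0.04 and -0.44, CENPF 0.04 and -0.87, KNL1 0.02 and -0.55, SKA3 0.03 and -1.40, KIF15 0.13 and -1.11, ASPM 0.04 and -0.78, PRC1 0.10 and -0.55, and ARHGEF39 0.00 and -0.87.

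For the difference of effects the 2 calls were 1 with a variance trend (BUB1) and 0 with the replicate block. Leaving out 1 array gave 0 to 12 calls and medians of -0.45 to 0.22, around -0.09. The cause of these changes was not tested.

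Same-numbered arrays did not deviate together (r = 0.088 for GSK-J4 and DMSO, -0.036 for KDM6B siRNA and control siRNA), so no large shared shift was seen. Whether same-numbered cultures were handled side by side is not known from this. Every gene of the set was above background on all arrays, though CDCA3 and ARHGEF39 came close to it with GSK-J4. CDCA3 did so too on KDM6B siRNA replicate 2, at 5.11. Whether nearness to background made their differences smaller was not tested.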
